A study of Mus musculus with 12 samples.

Results

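Follicle-only peaks are sites of open chromatin whose ATAC-seq level in normal mouse hair follicle stood above the level in every other sample of the series. They were chosen from measured values. The level of a peak was log2(CPM + 0.5), where CPM is the count scaled to a total of 1000000 over all peaks of the paired-end run, and a peak on chr1 to chr19 was kept when its level in hair follicle exceeded the highest of the other 5 samples by at least 1.5. That difference is called the margin here. The rule kept 3590 of 177240 peaks, which is 2.07% of the 173565 peaks that could pass, and 75 peaks had been dropped because their paired-end total was over 3 times their single-end total. The paired-end levels below are therefore a description of the choice and carry no test.

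ATAC-seq marks open DNA with the Tn5 transposase, and each of the 6 samples has runs of both kinds, single-end and paired-end. The normal samples are hair follicle (HF, 1 sample) and interfollicular epidermis (IFE, 1 sample) of WT mice. The tumour samples are K14 Epcam+ (1 sample, from mice whose alleles include K14CreER, p53fl/fl and Rosa-YFP+/+), Lgr5 Epcam+ (2 samples, called 1 and 2) and Lgr5 Epcam- (1 sample), the last 3 from mice that carry Lgr5CreER in place of K14CreER. All mice are labelled female and of mixed strain, no age is given, and the sort used antibodies to CD45, CD31, CD140a and Epcam. K14 is a keratin of basal keratinocytes and Lgr5 a receptor of follicle stem cells, and in the tumour models these genes drive the Cre that removes p53 and marks cells with YFP. The protocol in the labels speaks of tumours alone, so how the normal cells were gated is not given in the sources used here. Whether the Lgr5 Epcam+ pair came from separate animals is not stated, so the spread behind each p-value is that between 2 samples and may be technical.

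The hair follicle is an appendage of the epidermis that regrows in cycles from stem cells held in its bulge. Lgr5, Krt15 and Cd34 mark these cells, and the transcription factors Lhx2, Sox9, Tcf7l1, Nfatc1 and Tbx1 are known for keeping them. Open sites away from gene starts are often enhancers, which differ more between cell types than promoters do.

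Counts in peaks ran from 15896612 to 32703016 per run, and counts in peaks made up 21.3% (single-end HF) to 51.1% (paired-end Lgr5 Epcam+ sample 1) of a run. Intervals given here are at 95% and cover counting error alone. The single-end counts of K14 Epcam+ step down along the genome: the median log2 ratio of single-end to paired-end level was 0.24 on chr1 to chr14 and -0.71 on chr16 to chr19, while in the other 5 samples these values differed by at most a few hundredths. In bulk cells, fewer cells with a site open and less opening per cell cannot be told apart.

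Few follicle-only peaks held a gene start. A start site of a protein-coding gene lay in 23 of them (0.641%), beside 6.22% of all eligible peaks. The 250 bases before 5 of these starts are printed here from RefSeq (GRCm38.p6), as examples chosen after their values were seen: Lhx2 (a LIM homeobox factor of follicle stem cells, chr2:38351058-38351307, plus strand), Angptl7 (a secreted angiopoietin-like protein, chr4:148500463-148500712, minus strand), Shisa2 (an antagonist of Wnt and FGF signalling, chr14:59625031-59625280, plus strand), Krt75 (the keratin of the companion layer around the hair, chr15:101573905-101574154, minus strand) and Krt24 (a type I keratin, chr11:99285263-99285512, minus strand). Each runs 5′ to 3′ on the gene's strand and ends 1 base before the start. Capitals mark the matches to any of 15 short motifs searched on both strands.
Lhx2: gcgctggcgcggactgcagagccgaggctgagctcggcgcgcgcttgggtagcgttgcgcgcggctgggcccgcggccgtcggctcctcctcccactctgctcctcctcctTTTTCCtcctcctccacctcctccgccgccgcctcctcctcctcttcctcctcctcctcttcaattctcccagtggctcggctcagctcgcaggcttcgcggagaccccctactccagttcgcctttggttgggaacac
Angptl7: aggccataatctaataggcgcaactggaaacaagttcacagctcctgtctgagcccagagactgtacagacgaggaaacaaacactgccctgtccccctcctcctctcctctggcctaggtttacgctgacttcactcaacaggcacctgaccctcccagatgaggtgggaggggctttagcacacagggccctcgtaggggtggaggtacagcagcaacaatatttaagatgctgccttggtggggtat
Shisa2: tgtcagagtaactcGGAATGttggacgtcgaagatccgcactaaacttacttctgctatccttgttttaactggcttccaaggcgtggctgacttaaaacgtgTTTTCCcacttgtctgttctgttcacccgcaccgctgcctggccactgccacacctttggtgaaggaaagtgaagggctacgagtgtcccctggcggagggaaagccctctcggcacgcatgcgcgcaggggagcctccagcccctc
Krt75: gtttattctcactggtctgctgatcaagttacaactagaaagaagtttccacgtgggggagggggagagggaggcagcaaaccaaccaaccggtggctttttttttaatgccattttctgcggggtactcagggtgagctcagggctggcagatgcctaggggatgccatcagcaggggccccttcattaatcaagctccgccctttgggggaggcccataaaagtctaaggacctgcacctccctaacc
Krt24: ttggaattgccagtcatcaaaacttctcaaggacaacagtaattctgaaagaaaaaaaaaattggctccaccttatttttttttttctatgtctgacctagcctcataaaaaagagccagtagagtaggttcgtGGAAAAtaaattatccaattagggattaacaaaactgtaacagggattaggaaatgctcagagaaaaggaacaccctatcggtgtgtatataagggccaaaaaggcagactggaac
The Lhx2 window held 1 match, to the NFAT letters, 139 bases before the start. The Shisa2 window held a TEAD match at 236 bases and an NFAT match at 147 bases, and the Krt24 window an NFAT match at 116 bases. No letters of the 15 motifs were found in the Angptl7 and Krt75 windows.

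Across the 23 start-site windows, NFAT (GGAAAA) was found in 9 (39.1%, beside 19.8% of 21263 RefSeq promoter windows of the same length), TEAD (GGAATG) in 7 (30.4%, beside 11.7%) and GRHL (AACCNGTT) in 3 (13.0%, beside 1.70%). The GRHL matches lay before Gsdma3, Paqr6 and Spata25. The NFAT matches lay before Lhx2, Shisa2, Krt24, Krtap17-1, Lpar1, Sema3e, Bdnf, Ahcyl2 and 1700019D03Rik. SOX was found in 3 windows as ACAATG and in 4 as ACAAAG (9.35% and 15% of all promoters), the NFI letters TTGGCA in 3 (11.5%) and RUNX (TGTGGTT) in 2 (3.82%). The LHX letters TAATTA were found in 1 (4.31% of all promoters), as were CTTTGAT of TCF/LEF (2.82%) and AGATAA of GATA (8.81%). FOX (TGTTTAC), AP-1 (TGANTCA), the p63 letters GGGCATGT, ETS (CCGGAAGT) and KLF (GGGTGTGG) were in none of the 23 (2.62%, 6.13%, 0.607%, 3.79% and 3.32% of all promoters). The windows had a median GC content of 49.2%, beside 55.6% of all promoters, and ranged from 36.8% to 71.2%. All promoters include those outside peaks. In the 12870 promoters whose start lies in an eligible peak, the median GC content was 60.4%. Of these, 17.8% held NFAT, 10.6% TEAD, 1.61% GRHL, 5.28% AP-1 and 5.73% ETS. Where the peak kept a single-end margin of at least 1.5 (14 windows), 4 held NFAT (28.6%), 5 TEAD (35.7%) and 3 GRHL (21.4%). With 23 windows or fewer these shares are a description, and a match is not a bound site.

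Among the start-site members, the Lhx2 peak (chr2:38350381-38351474) was at 49.4 CPM in HF and 11.6 in IFE, with 5.68 in K14 Epcam+, 6.02 and 6.91 in Lgr5 Epcam+ samples 1 and 2, and 14.3 in Lgr5 Epcam- (paired-end). HF was highest by a margin of 1.76, and Lgr5 Epcam- came next. The Angptl7 peak (chr4:148499864-148501373) was at 41.3 CPM in HF and 5.62 in IFE, with 1.05 in K14 Epcam+, 2.45 and 1.81 in Lgr5 Epcam+ and 4.01 in Lgr5 Epcam-. Its margin was 2.77, and IFE came next. The Shisa2 peak (chr14:59624667-59626252) was at 25.2 CPM in HF and between 2.63 and 6.28 in the other 5 samples. The Krt75 and Krt24 peaks were lower, at 6.79 and 5.0 CPM in HF, with no other sample above 1.81 and 0.696 CPM. The highest start-site member lay at Sardh, the gene of a mitochondrial sarcosine dehydrogenase, with 55.7 CPM in HF and at most 9.37 elsewhere. Of the other starts, that of Krtap17-1, a keratin-associated protein of the hair shaft, was at 8.09 CPM in HF. Gsdma3, a gasdermin whose mutation causes hair loss in mice, was at 9.02 CPM. Il31ra (a subunit of the itch cytokine receptor) was at 11 CPM and Lpar1 (a receptor for lysophosphatidic acid) at 18.6 CPM. The largest margin of the 23 was that of Gm46650 (3.73, with 35.4 CPM in HF). The rest lay at Sema3e, Paqr6, Upb1, Lrrc72, Lep, Adcy1, Bdnf, Cdrt4, Sh2d7, Ahcyl2, 1700019D03Rik and Spata25. Of the 23, 14 kept a margin of at least 1.5 in the single-end run. The Lhx2 start-site peak was not among them (single-end margin 1.35), while those of Angptl7 (1.90), Shisa2 (1.81) and Krt24 (1.53) were, and that of Krt75 was just below (1.47).

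Over all 3590 peaks, the median paired-end level was 10.3 CPM in HF and 1.62 in IFE, with 1.10 in K14 Epcam+, 0.765 and 1.12 in Lgr5 Epcam+ samples 1 and 2, and 1.11 in Lgr5 Epcam-. All eligible peaks had medians between 2.08 and 2.71 CPM in the 6 samples. By their medians the members were thus high in 1 sample and below the usual peak in the other 5. This does not hold for each member: their upper quartile in IFE was 2.725 CPM, above the median of 2.261 over all eligible peaks. They held 5.0% of the paired-end counts in peaks of HF and from 0.418% to 0.839% in the others. The median difference from HF, on the log2(CPM + 0.5) scale, was smallest for IFE (2.20) and largest for Lgr5 Epcam+ sample 1 (2.98). Every member had at least 50 counts in HF in the paired-end run.

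**Figure D1:**
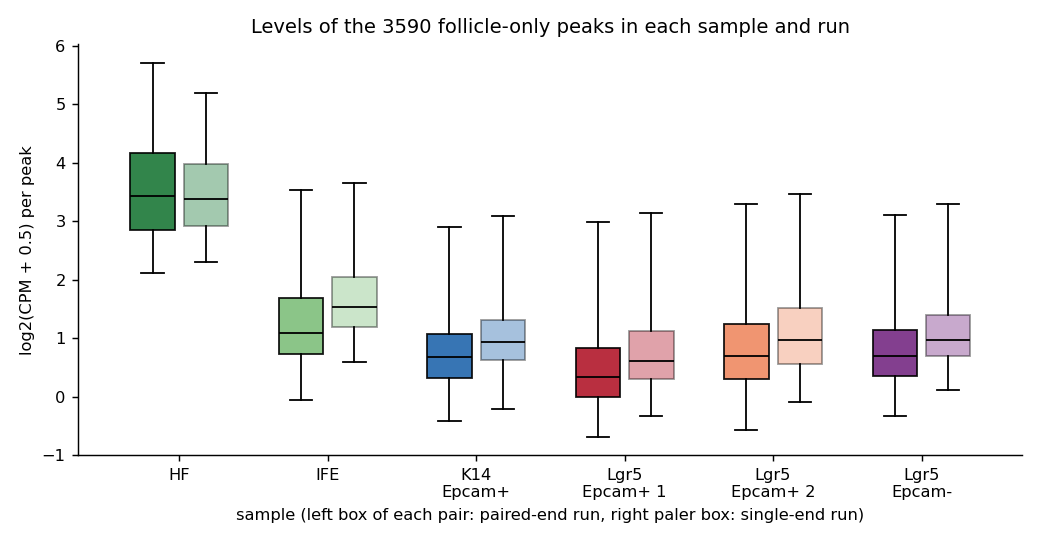
Levels of the 3590 follicle-only peaks as log2(CPM + 0.5) in each sample (x axis), with the paired-end run at the left of each pair and the single-end run, paler, at the right. Boxes span the quartiles with the median as a line and whiskers reach the 1st and 99th percentiles; the HF boxes (medians of 10.3 CPM paired-end and 9.88 CPM single-end) stand above the others, whose next is IFE (1.62 and 2.38 CPM).

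The sample next to HF was most often IFE. It held the highest of the other 5 levels in 1987 members (55.4%), beside 31.5% of all eligible peaks, followed by Lgr5 Epcam- (655, 18.2%), Lgr5 Epcam+ sample 2 (524, 14.6%), K14 Epcam+ (336, 9.36%) and Lgr5 Epcam+ sample 1 (88, 2.45%). In the single-end runs, which did not enter the margin, IFE lay above K14 Epcam+ in 88.3% of the members (52.5% of all eligible peaks), above Lgr5 Epcam+ sample 1 in 94.1% (59.4%), above sample 2 in 83.6% (57.5%) and above Lgr5 Epcam- in 83.4% (52.3%). The K14 Epcam+ value includes the chromosomes where its single-end counts step down. In the paired-end runs the shares were lower, at 78.61% (47.98%), 88.75% (56.54%), 74.46% (53.55%) and 73.12% (48.41%) in the same order. Left out of the comparison, IFE would have let 8222 peaks pass.

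The single-end runs carry the same sample titles, and the labels do not say whether they come from the same libraries or animals. They were taken as second runs, not as replicates, and their reads were not used for the margin. HF remained the highest sample in all 3590 members there, and 2201 (61.3%, Wilson interval 59.7 to 62.9) kept a margin of at least 1.5, which 1.44% of all eligible peaks (2495) reached in the single-end runs. These 2201 are 88.2% of those 2495. The median margin was 1.97 in the paired-end and 1.62 in the single-end runs. Peaks near the threshold were kept least often: 654 of 1871 with a paired-end margin of 1.5 to 2 (35.0%), 820 of 989 at 2 to 2.5 (82.9%), 470 of 473 at 2.5 to 3 (99.4%) and all 257 at 3 or more. Members with 50 to 99 counts in HF were kept in 38.3% of cases and those with 200 or more in 70.6%. The runs of a sample differed by more than counting noise, with a chi-square per peak between 3.11 and 5.29 over the 6 samples.

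**Figure D2:**
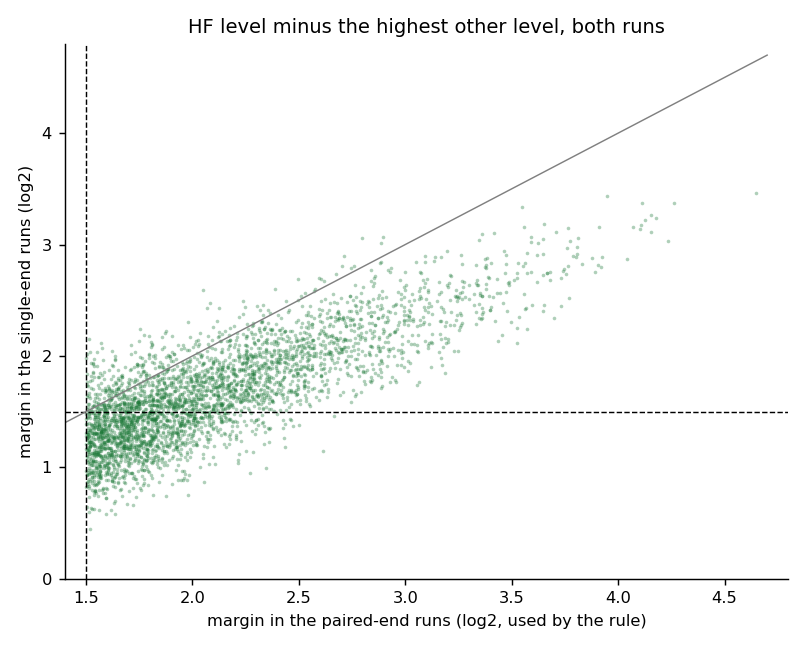
Margin of each follicle-only peak in the paired-end runs (x axis, log2, used by the rule) and in the single-end runs (y axis, log2). Dashed lines mark 1.5 and the grey line equal margins; most points lie below the grey line, with medians of 1.97 and 1.62, and none reaches 0 on the y axis.

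At the threshold itself, the last peaks let in were near Abca1, Bin3 and Tmem26, each with a paired-end margin of 1.5, and their HF levels were 7.47, 7.47 and 4.88 CPM. The first peaks left out, in Rab11fip1, Bnc2 and Ror1, were at 6.55, 5.06 and 41.1 CPM in HF. The single-end margins were 1.99, 1.28 and 1.44 inside the threshold and 1.59, 1.10 and 1.25 outside it.

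A gene symbol beside a peak below says which protein-coding gene span is nearest, not which gene the peak acts on. Among the members of highest HF level, the peak 22242 bp from Tdrd3, the gene of a Tudor-domain protein (chr14:87567750-87569030), reached 126 CPM in HF, with 27.6 in IFE, 7.97 in K14 Epcam+, 11 and 16 in Lgr5 Epcam+ and 17.2 in Lgr5 Epcam-. The peak inside Trabd2b, which encodes a metalloprotease that cleaves Wnt proteins (chr4:114611027-114612463), was at 87.3 CPM in HF and 8.99 in IFE, with 4.48 in K14 Epcam+, 3.55 and 2.68 in Lgr5 Epcam+ and 4.01 in Lgr5 Epcam-. Its margin was 3.21 in the paired-end and 2.5 in the single-end run, against 2.17 and 1.57 for the Tdrd3 peak. The peak 17875 bp from Cxcl14, a chemokine of epithelia (chr13:56314686-56315918), was at 67.6 CPM in HF, 7.07 in IFE and between 1.5 and 3.45 in the 4 tumour samples. The peak 5440 bp from Foxp1, a forkhead factor (chr6:99528186-99529399), was at 71.2 CPM in HF, 14.4 in IFE and between 1.55 and 6.74 in the tumour samples. In both, every tumour sample lay below IFE. The peak 10678 bp from Sostdc1, a secreted antagonist of BMP and Wnt signals (chr12:36302073-36303491), was at 66.5 CPM in HF and 16.2 in IFE, with 10.5 in K14 Epcam+, 10.2 and 20.3 in Lgr5 Epcam+ and 9.95 in Lgr5 Epcam-. Its margin was 1.69 in the paired-end and 0.98 in the single-end run.

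The same set of 12 held peaks in or near Ston1, Immp2l, Acsbg1, Tbck, Gnb1l, Me3 and Plekha2, at 60.2 to 79.9 CPM in HF. The peak in Acsbg1, a long-chain acyl-CoA synthetase (chr9:54635280-54636433), was at 72.5 CPM in HF, 9.74 in IFE and at most 4.78 in a tumour sample. In the Immp2l peak (chr12:41351003-41352186) the tumour samples lay between 1.01 and 2.46 CPM, while HF had 76.8 and IFE 14.8. Over the 12, Lgr5 Epcam+ sample 2 came next to HF in the Sostdc1 and Me3 peaks, Lgr5 Epcam- in the Ston1 peak (79.9 CPM in HF, 20.1 in IFE and 24.9 in Lgr5 Epcam-), and IFE in the others.

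The members of largest single-end margin were lower in HF level and showed less in IFE than those of highest HF level. The different choice of these sets, by margin and by HF level, favours that contrast. The peak inside Siah3 (chr14:75472948-75473969) was at 34.8 CPM in HF and between 0.696 and 1.34 in the other 5 samples, with margins of 4.26 and 3.37 in the paired-end and single-end runs. The peak inside Ift57, an intraflagellar transport protein of cilia (chr16:49741424-49742424), was at 32.6 CPM in HF and between 0.597 and 1.47 elsewhere. The peak inside Grid1, a glutamate receptor of the delta family (chr14:34935944-34936944), was at 36.8 CPM in HF and between 1.01 and 1.59 elsewhere. In these 3 peaks the other samples were all near the level of 1 CPM. The peak 22615 bp from Rest, the repressor of neuronal genes (chr5:77241879-77242879), was at 27.9 CPM in HF and at most 1.39 elsewhere. The peak 25768 bp from Clnk, an adaptor protein of immune receptor signalling (chr5:38902626-38903626), was at 38.1 CPM in HF and at most 2.71 elsewhere. The peak 29505 bp from Mme, the cell surface peptidase neprilysin (chr3:63413218-63414225), was at 29.8 CPM in HF, and IFE had 2.09. The others of this set were nearest to Gm39147, Hs3st2, Spock1, Gfra1, Ncald and Fbxl7, with single-end margins of 3.05 to 3.12 and HF levels of 13.6 to 42.6 CPM. Gfra1, the receptor subunit for glial cell line-derived neurotrophic factor, and Ncald, a neuronal calcium sensor, were the lowest of these in HF (13.6 and 16.7 CPM).

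Follicle-only peaks lay away from genes more often than other peaks did. A gene end here is a start site for the 17492 of 21900 genes that have one in the reference. For the remaining genes it is either end of the span. Within 1 kb of a gene end lay 62 of them (1.73%), beside 10.05% of all eligible peaks, and 1122 (31.3%) were more than 50 kb from any protein-coding gene span, beside 17.2%. Of the 2334 peaks that the same rule gives for IFE, 2.87% lay at a gene end and 19.2% far from genes. Inside a gene were 43.6% of the follicle-only peaks, beside 46.5% of all eligible peaks. The difference at gene ends was thus shared with the IFE peaks, and the share far from genes was higher than in both.

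They also lay close to each other. Another member was within 20 kb of 1233 members (34.3%), beside 7.15% of the eligible peaks that were not members. Joined over gaps of up to 50 kb, the members formed 252 chains of 3 or more that held 955 of them. The longest chains had 11 members. On chr14 between 59624667 and 59702001, 11 of 15 eligible peaks around Shisa2 and Atp8a2, a phospholipid flippase, were members, and on chr10 between 115418083 and 115550863, 11 of 19 around Lgr5 and Zfc3h1. A chain of 10 of 15 peaks lay at Cadm1, a cell adhesion molecule, on chr9. Neighbouring peaks share their surroundings and are not independent measurements.

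At Lhx2, 9 of the 13 eligible peaks in the 29.2 kb between 38350381 and 38379621 on chr2 were members. Besides the start-site peak, the peak at chr2:38370792-38373052 was at 28.4 CPM in HF and 4.12 in IFE, with 1.94 in K14 Epcam+, 2.69 and 2.81 in Lgr5 Epcam+ and 2.17 in Lgr5 Epcam-, with IFE next to HF. The peak at chr2:38359209-38360730 was at 24.2 CPM in HF and 2.09 in IFE, with 2.49 in K14 Epcam+, 1.62 and 1.60 in Lgr5 Epcam+ and 6.76 in Lgr5 Epcam-, so that Lgr5 Epcam- came next there. Of the 9 Lhx2 members 3 kept a margin of 1.5 in the single-end run.

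At Lgr5, the receptor of R-spondins, 7 of 21 eligible peaks were members and 5 of them were kept in the single-end run. The peak at chr10:115549722-115550863 was at 30.5 CPM in HF and 3.07 in IFE, with 2.54 in K14 Epcam+, 2.08 and 4.28 in Lgr5 Epcam+ and 2.13 in Lgr5 Epcam-. The peak at chr10:115455477-115456681 was at 23.2 CPM in HF and 1.57 in IFE, with 2.59 in K14 Epcam+, 2.90 and 3.71 in Lgr5 Epcam+ and 1.59 in Lgr5 Epcam-. In both, the highest of the other samples was Lgr5 Epcam+ sample 2, while sample 1 was the lowest of all in the first. K14 Epcam+ came next to HF in the member at chr10:115514910-115515910 and Lgr5 Epcam- in that at chr10:115548287-115549287. In the remaining Lgr5 members it was again sample 2. A peak of the gene that was not a member, at chr10:115585786-115588084, was at 24.2 CPM in HF and at 12.8 in K14 Epcam+ and 12.1 in Lgr5 Epcam-.

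**Figure D3:**
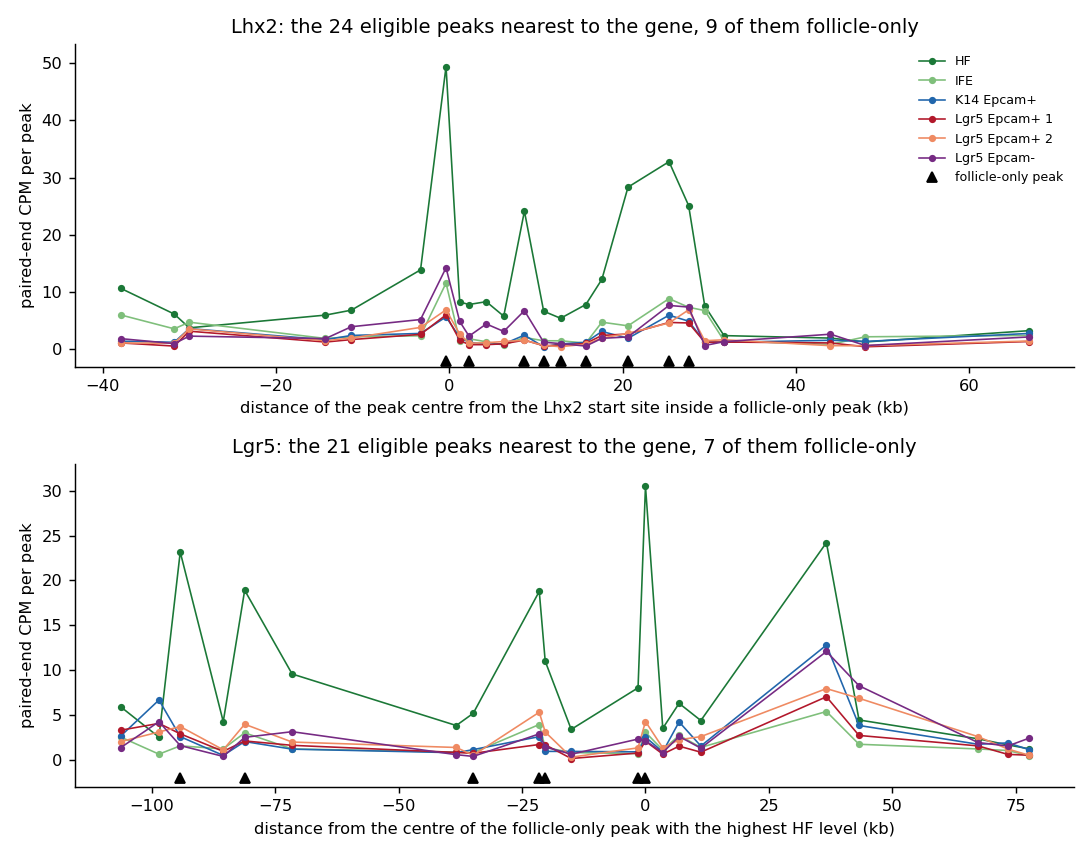
Paired-end CPM (y axis) of every eligible peak nearest to Lhx2 (24 peaks) and Lgr5 (21 peaks) in each sample, by the distance of the peak centre in kb from the Lhx2 start site and from the Lgr5 member of highest HF level (x axis). Triangles mark the 9 and 7 follicle-only peaks, lines join peaks of 1 sample for the eye, and the HF line reaches 49.4 and 30.5 CPM.

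Among 14 gene lists, the markers and transcription factors of follicle stem cells held many follicle-only peaks for their number of peaks. The melanocyte and Merkel cell lists described below had higher shares (10.7% and 7.60%). With each peak given to the nearest gene span within 50 kb, 1.72% of the eligible peaks that had a gene were members, while the share was 5.98% for the stem cell markers (19 of 318 peaks, 10 of 18 genes) and 5.02% for the transcription factors (29 of 578 peaks, 11 of 19 genes). In the single-end run 12 of the 19 and 12 of the 29 kept a margin of 1.5, which is 3.77% and 2.08% of the lists' peaks, beside 1.01% of the eligible peaks with a gene. The 12 of 29 is a smaller share than the 61.3% over all members. Lgr5 alone held 7 of the 19 and Lhx2 9 of the 29, each within a chain of neighbouring peaks. Of the marker receptors, Lgr5 had 7 members and Lgr6, its relative in the upper follicle, had 1. Among secreted markers, Fgf18, a growth factor of resting follicles, had 3 members, and Dkk3, Sfrp1, Npnt, Postn and Angptl7 had 1 each. The Angptl7 member counted here is a weaker peak inside the gene (5.13 CPM in HF), while the peak over its start lies inside the surrounding gene Mtor as well and was counted there. The surface marker Cd34 had 2 and the keratin Krt15 had 1. Members are high in HF by the rule, and the sum over all peaks of a gene can differ. Lgr5 summed to 193.2 CPM in HF and at most 57.48 elsewhere (paired-end). Cd34 summed to 86.16 CPM in HF and 43.65 in IFE, and was higher in the tumours, at 92.19 to 153.5. No member lay nearest to Itga6, Lrig1, Gas1, Wif1, Ctnnal1, Col17a1, Grem1 or Bmp6.

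The Krt15 member (chr11:100137315-100138315) was at 22.8 CPM in HF and 6.49 in IFE, with 1.39 in K14 Epcam+, 1.10 and 1.60 in Lgr5 Epcam+ and 0.870 in Lgr5 Epcam-. HF and IFE were both above the 4 tumour samples. The higher Cd34 member (chr1:194894914-194896158) was at 18.7 CPM in HF and 5.28 in IFE, with 1.64 in K14 Epcam+, 0.764 and 4.40 in Lgr5 Epcam+ and 2.61 in Lgr5 Epcam-, and the Lgr5 Epcam+ pair differed there more than 5 times.

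Of the transcription factors, Lhx2 had 9 members, Tcf7l2 4, Nfatc1 and Barx2 3 each, Sox9, Tcf7l1 and Gli3 2 each, and Tbx1, Gli2, Foxc1 and Id2 1 each. Nfib, Nfix, Sox4, Runx1, Gli1, Id3, Zic1 and Foxi3 had none. The Tcf7l2 member (chr19:55779209-55780436), in the gene of a Wnt effector, was at 45.1 CPM in HF and 9.10 in IFE, with 4.23 in K14 Epcam+, 4.62 and 8.81 in Lgr5 Epcam+ and 3.14 in Lgr5 Epcam-. The Gli2 member (chr1:119070776-119071951), near the gene of a hedgehog effector, was at 35.0 CPM in HF and 5.74 in IFE, with 2.74 in K14 Epcam+, 2.05 and 2.29 in Lgr5 Epcam+ and 5.03 in Lgr5 Epcam-. The Sox9 members were weaker: the one 41786 bp from the gene (chr11:112739424-112740424) was at 7.78 CPM in HF and at most 0.696 elsewhere. Over all its peaks Sox9 summed to 106.2 CPM in HF, 56.58 in IFE and 103.4 to 128.8 in the tumours. Lhx2 summed to 286.2 CPM in HF and at most 83.02 elsewhere. The Tbx1 member (chr16:18577369-18578552) was at 10.3 CPM in HF and at most 2.08 elsewhere, and it closed a chain of 8 members on chr16 that reached over Gnb1l and Txnrd2. The Tcf7l1 members were at 21.6 and 13.5 CPM in HF, with at most 5.99 and 2.51 elsewhere.

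Lists of other follicle and epidermal compartments held fewer. The hair germ, Shh and Wnt list had 1 member of 214 peaks (0.467%; near Edar), the upper follicle and sebaceous gland list 1 of 161 (0.621%), the hair shaft, inner root sheath and companion list 6 of 242 (2.48%), the basal keratinocyte list 2 of 363 (0.551%) and the epidermal differentiation list 2 of 210 (0.952%). The 6 of the hair shaft list lay at Vdr, Dlx3, Msx1, Hoxc13, Krt75 and Msx2, with HF levels from 6.18 to 25.6 CPM. EMT and mesenchymal genes had 2 of 255 (0.784%; Postn and Zeb2), and housekeeping genes 1 of 82 (1.22%; near Ywhaz).

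Markers of other cells that the sort could hold were set beside these. No member lay near the immune genes (0 of 54 peaks) or the fibroblast, dermal papilla and pericyte genes (0 of 180). Near endothelial genes lay 4 of 149 (2.69%, beside 1.72% of the eligible peaks with a gene), at Tek, Sox17 and Erg. Over all peaks of its genes, the immune list summed to 120.4 CPM in HF, below the 164.4 of IFE and the 182.9 to 232.8 of the tumour samples. The endothelial list summed to 574 CPM in HF, beside 572.5 in IFE and 651 to 785.2 in the tumours. Its genes with members were highest in HF, in sums that include those members. Tek summed to 73.87 CPM in HF and at most 44.17 elsewhere, Erg to 96.42 and at most 74.24, and Sox17 to 8.956 and at most 1.507. Each other gene of that list was higher in some other sample than in HF. The fibroblast list summed to 603.1 CPM in HF, beside 512.7 in IFE and 591 to 970.5 in the tumours. The list of melanocyte and Schwann cell genes had the highest share, 8 of 75 peaks (10.7%), and all 8 were at Mitf, a transcription factor of melanocytes that other cells also express. Without Mitf this list summed to 190.6 CPM in HF and 195.5 in IFE, and Dct, a melanocyte enzyme, to 48.3 and 48.9. The tumour samples were lower in both, at 142.4 to 171 CPM for the list without Mitf and 19.04 to 38.73 for Dct. The highest Mitf member (chr6:98046201-98047363) was at 30.7 CPM in HF and 3.07 in IFE, with 1.49 in K14 Epcam+, 0.55 and 0.95 in Lgr5 Epcam+ and 3.04 in Lgr5 Epcam-. Merkel cell genes had 6 of 79 (7.60%), 3 at Rab3c and 3 at Piezo2. The list summed to 268.7 CPM in HF, 188.8 in IFE and 248.5 to 489.9 in the tumours. Over all their peaks, Piezo2 summed to 119.1 CPM in HF and 59.07 in IFE, and Rab3c to 62.82 and 36.29. Atoh1 and Krt20, which define these cells, had no member. They summed to 7.35 and 6.49 CPM in HF against 8.87 and 6.55 in IFE. No gene with a peak was at 0 in any sample. The part of such cells in these levels was not tested.

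**Figure D4:**
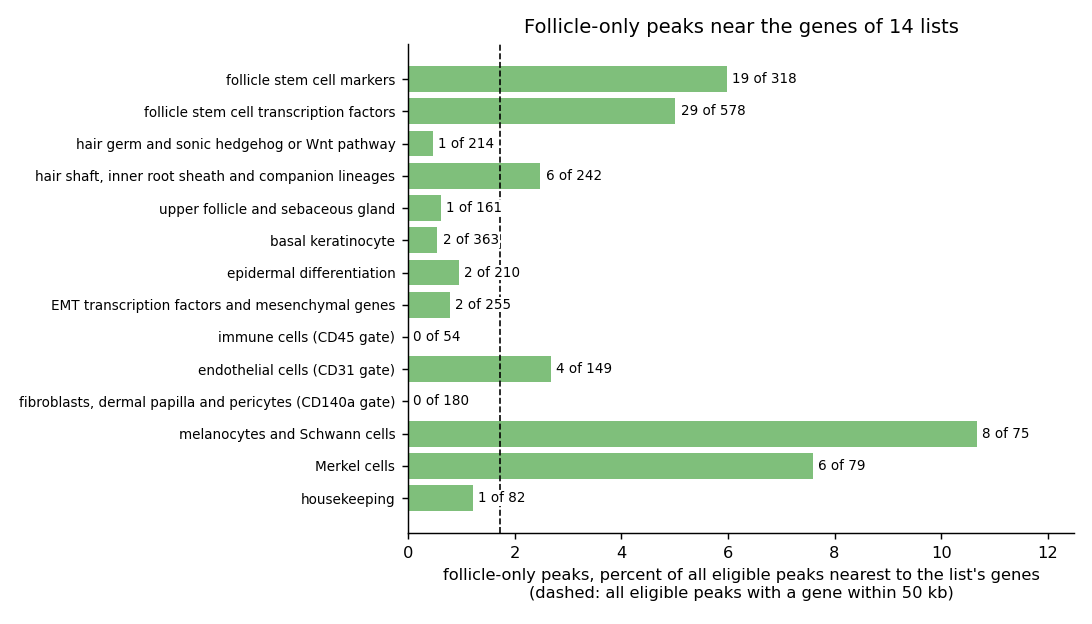
Share of eligible peaks that were follicle-only (x axis, percent) for the genes of 14 lists (y axis), with the counts beside each bar. The dashed line is the 1.72% of all eligible peaks with a gene within 50 kb. The highest shares were those of the melanocyte and Schwann cell list (10.7%) and the Merkel cell list (7.60%). The follicle stem cell lists reached 5.98% and 5.02%, and the immune and fibroblast lists held none.

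By gene, 1574 genes had at least 1 member and 57 had 5 or more. Among the genes with most members were Atp8a2 (12 of its 28 eligible peaks), Tenm3 (10 of 61), Lrmda (10 of 82), Lhx2 (9 of 24), Wwox (9 of 71), Tenm4 (9 of 112), Trabd2b (8 of 71), Tenm2 (8 of 73) and Sema3e (8 of 29). Tenm2, Tenm3 and Tenm4 encode teneurins, adhesion receptors known from neurons, and are very long genes, so the count is given beside the number of peaks. Sema3e is a secreted guidance protein, and one of its members held its start, at 32.9 CPM in HF. By chromosome the share ran from 1.49% (chr7) to 3.0% (chr14).

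The remaining samples were compared with edgeR's quasi-likelihood test on the single-end counts of all peaks, with Benjamini-Hochberg adjustment at 0.05. HF is in none of these contrasts. The pair of Lgr5 Epcam+ samples gives the 1 residual degree of freedom, each lone sample being assumed to vary as the pair does, and the rule limits the members to low levels in all 5 samples compared. All 3 contrasts share the Lgr5 Epcam+ pair.

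Between Lgr5 Epcam+ tumours (n = 2) and IFE (n = 1), 264 of 3590 members (7.35%) were called lower in the tumours, beside 9.74% of all peaks, and 6 (0.167%) higher, beside 10.4%. The lower members were 51 with the DESeq2 test and 494 with total-count scaling. The median log2 ratio was -0.71 over the members and 0.02 over all peaks, and 14.8% of the members lay above 0, beside 50.8% of all peaks. The 6 that were higher are named here after their values were seen. The peak 40724 bp from Bnc1, the zinc finger gene basonuclin 1 of basal keratinocytes (chr7:82033023-82034358), was at 39.4 CPM in HF and 4.05 in IFE, with 12.2 in K14 Epcam+, 14.4 and 17.5 in Lgr5 Epcam+ and 9.19 in Lgr5 Epcam- (single-end; log2 ratio 2.19, edgeR adjusted p = 0.000872). All 4 tumour samples were above IFE there. A peak 30223 bp from Actn1, an actin crosslinker (chr12:80290643-80292722), was at 44.7 CPM in HF and 5.96 in IFE, with 20.3 in K14 Epcam+, 17.4 and 14.6 in Lgr5 Epcam+ and 19.5 in Lgr5 Epcam- (log2 ratio 1.65, edgeR adjusted p = 0.00187). The others were in Zhx3, beyond 50 kb of Cited2 and of Cdh5, and 54417 bp from Bnc1, with log2 ratios of 1.92, 1.87, 1.69 and 1.34. Of the 6, Zhx3 lost its call with total-count scaling, DESeq2 size factors or the DESeq2 test (adjusted p of 0.0562, 0.0529 and 0.0684), and the peak 54417 bp from Bnc1 with the DESeq2 test (adjusted p = 0.0982). Of the lower members, the peak in Opcml, a cell adhesion gene of neurons (chr9:28515234-28516337), was at 30.9 CPM in HF and 8.34 in IFE, with 0.890 in K14 Epcam+, 0.397 and 0.532 in Lgr5 Epcam+ and 0.827 in Lgr5 Epcam- (log2 ratio -3.95, edgeR adjusted p = 0.000279). The tumour samples there were all below 1 CPM.

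Between Epcam- and Epcam+ cells of Lgr5 tumours few members were called. 42 were higher in Lgr5 Epcam- (1.17%, beside 7.27% of all peaks) and 38 lower (1.06%, beside 6.32%), and the split was 70 to 38 with total-count scaling, 24 to 27 with summed runs and 8 to 22 with the DESeq2 test. The median log2 ratio was 0.09 over the members and -0.04 over all peaks. The peak in Lrmda (chr14:22090095-22091601) was at 25.3 CPM in HF and 5.90 in IFE, with 2.51 in K14 Epcam+, 1.22 and 3.28 in Lgr5 Epcam+ and 13.6 in Lgr5 Epcam- (single-end; log2 ratio 2.46, edgeR adjusted p = 0.00855). Lgr5 Epcam- was the sample next to HF there. A peak in Bckdhb, a subunit of the enzyme that breaks down branched-chain keto acids (chr9:84032477-84033491), was at 9.83 CPM in Lgr5 Epcam- and at 1.06 and 1.68 in Lgr5 Epcam+ (log2 ratio 2.69, edgeR adjusted p = 0.00493). In the other direction, the peak in Myh14, a nonmuscle myosin heavy chain (chr7:44661849-44663041), was at 34.7 CPM in HF and 11.7 in IFE, with 9.32 in K14 Epcam+, 9.26 and 8.87 in Lgr5 Epcam+ and 1.31 in Lgr5 Epcam- (log2 ratio -2.94, edgeR adjusted p = 0.00131). The 3 Epcam+ tumour samples were between 8.87 and 9.32 CPM there, and Lgr5 Epcam- was the lowest of all 6. A peak near Perp, a desmosome protein of epithelia (chr10:18874427-18875481), was at 8.0 and 8.47 CPM in Lgr5 Epcam+ and 1.31 in Lgr5 Epcam- (log2 ratio -2.80, edgeR adjusted p = 0.00414). The Bnc1 peak at 54417 bp (chr7:82046716-82048054) and the one near Cdh5 (chr8:103577141-103578273), both higher in Lgr5 Epcam+ than in IFE, were lower in Lgr5 Epcam- than in Lgr5 Epcam+ (log2 ratios of -2.62 and -2.60). These contrasts share the Lgr5 Epcam+ samples.

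Between Epcam+ tumours of the different Cre drivers, 1 member was called higher in Lgr5 Epcam+ than in K14 Epcam+ (0.0279%, beside 0.0666% of all peaks) and 0 lower (beside 0.0277%). At an unadjusted p under 0.05 edgeR gave 192 members of either direction (5.35%, beside 9.88% of all peaks), and DESeq2 called none after adjustment. The called peak, in Zfp532 (a zinc finger gene) on chr18, was at 3.51 CPM in K14 Epcam+ and 11.7 and 15.7 in Lgr5 Epcam+ (single-end; log2 ratio 2.12, edgeR adjusted p = 0.0427). It lies past the step in the K14 Epcam+ single-end counts, and in the paired-end runs the same values were 7.02, 10.03 and 14.3 CPM. With both runs summed the edgeR adjusted p was 0.753. With chr1 to chr14 alone no member was called (63 members, 2.13%, at an unadjusted p under 0.05, beside 5.39% of all peaks) and, of all peaks, 1 was higher and 18 were lower. The median log2 ratio over the members, 0.03, was close to the 0.02 over all peaks, and it ran from -0.20 without Lgr5 Epcam+ sample 2 to 0.21 without sample 1.

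One stretch of members had almost no counts in any tumour. On chr13 between 114505274 and 114518025, 46285 to 58036 bp from Fst, the gene of the activin antagonist follistatin, 4 consecutive peaks had summed counts of both runs of 128, 366, 440 and 201 in HF and 35, 54, 138 and 68 in IFE. K14 Epcam+ had 1, 0, 1 and 0, Lgr5 Epcam+ sample 1 had 0, 1, 0 and 0, sample 2 had 1, 0, 0 and 1, and Lgr5 Epcam- had 0, 1, 0 and 2. All 4 tumour samples, of both genotypes, were low in all 4 peaks, and a count of 0 allows up to 3 counts. No other member had at most 2 summed counts in all 4 tumour samples, and among all eligible peaks there were 5 such. The usual member had 48 to 58 summed counts in a tumour sample (medians), and 99% of members had at least 16. The flanking peaks on either side were counted normally in the tumours: the nearest before the stretch (chr13:114493575-114494711) had 244, 157, 90 and 324 counts and the nearest after it (chr13:114577963-114578963) 82, 99, 107 and 95, in the order K14 Epcam+, Lgr5 Epcam+ 1, Lgr5 Epcam+ 2 and Lgr5 Epcam-. In the single-end fit all 4 were called lower in Lgr5 Epcam+ than in IFE. The stretch was picked for low tumour counts that include the single-end counts. The call therefore follows from the choice and adds no support. No fold change is given, since the tumour counts are at the floor. The 4 tumour samples are also the 4 from engineered mice, so closed chromatin and DNA that is missing or does not align there cannot be told apart.

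**Figure D5:**
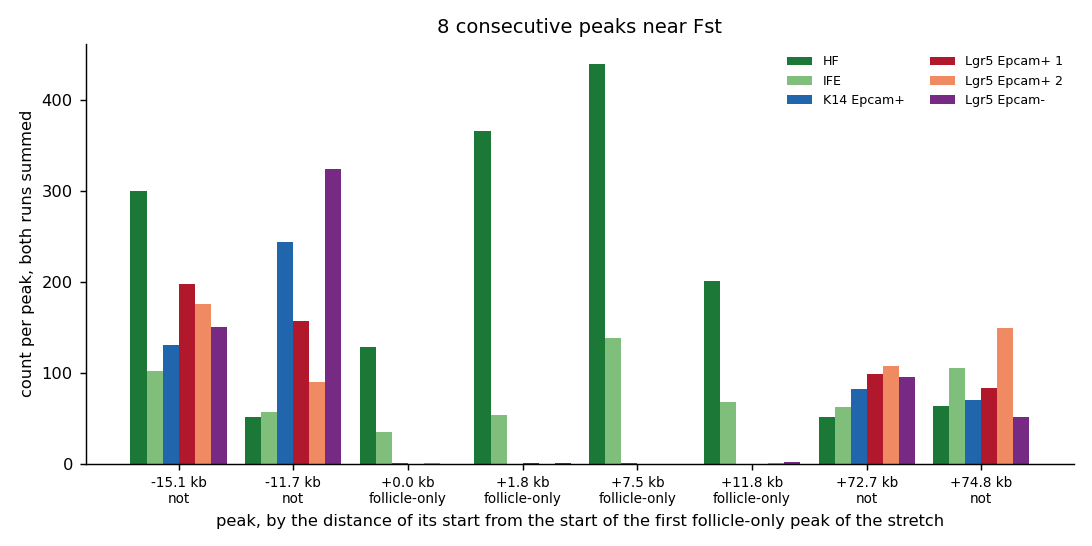
Counts of both runs summed (y axis) in each sample for 8 consecutive peaks near Fst, by the distance of their starts in kb from the first follicle-only peak of the stretch (x axis, not to scale). The 4 follicle-only peaks have 128 to 440 counts in HF, 35 to 138 in IFE and 0 to 2 in every tumour sample, and the flanking peaks have 51 or more in all samples.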

How the data were processed

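ATAC-seq counts per peak were analysed in 6 samples, each with 2 runs, single-end and paired-end. The authors deposited raw counts per peak for 1 shared list of 177240 peaks, without headers. Per the submitters' processing notes, Bowtie2, HOMER, bedtools and HTSeq were used on mm10; versions, read filters, duplicate removal and the pooling of peaks are not stated there, and unremoved duplicates or pooled peak calling could change levels. The labels tie runs to samples by title, and groups come from titles. A further allele of the tumour mice and 1 gene are not reported here.

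CPM was computed over all peaks of a run, leaving out the HTSeq summary lines. Each peak took the closest protein-coding gene span if at most 50 kb away (RefSeq, GRCm38.p6), with start sites for 17492 of 21900 genes. Single-end counts of 177202 peaks were fitted in edgeR 4.0.16 (limma 3.58.1, R 4.3.3; minimum count 10, TMM, group means; biological coefficient of variation 0.304), tested on simulated data first. No genome was used, so a planned motif search in peak centres was made in promoter windows. Members and gene lists were chosen with earlier results of these data known. Of 208 list entries, 207 matched by symbol (Trdc did not).

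Members were named by rule: the 12 of highest HF level and the 12 of largest single-end margin with a gene, genes with most members, up to 6 per list, a few fixed follicle genes, and 3 on either side of the threshold. Peaks of chr18 were passed over, except where a count of 1 asked for the name. Start-site members, called members, the stretch near Fst and the printed promoters were chosen after their values were seen. Alternatives were other thresholds, pseudocounts, scalings (TMM, DESeq2 1.42.0 size factors, total count), the DESeq2 test, summed runs, no low-count filter, and leaving out samples or chromosomes.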

Additional observations from a re-analysis of the deposited data

How the results depend on the processing

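The number of follicle-only peaks was 3590 and stayed within 1.5 times of it with single-end counts, summed runs, TMM or DESeq2 size factors, a pseudocount of 0.1, no pile-up filter, at least 20 counts in HF, or K14 Epcam+ left out (chosen after seeing the data). It was 6750 at a margin of 1.0, 1719 at 2.0, 1868 with a pseudocount of 2 and 8222 without IFE, and 3624 to 3941 leaving out either Lgr5 Epcam+ sample. The members kept in the single-end runs (2201) were 1032 with a pseudocount of 2 and 3403 at a margin of 1.0, where the background of 2495 was 1033 and 5879. Leaving out either Lgr5 Epcam+ sample gave 2208 to 2288 and a background of 2509 to 2736. Against IFE, members called lower in Lgr5 Epcam+ (264) were 494 with total-count scaling and 51 with the DESeq2 test. Between Lgr5 Epcam- and Lgr5 Epcam+, 42 higher became 70 with total-count scaling, 24 with summed runs and 8 with DESeq2, and 38 lower became 22 with DESeq2. The 1 member higher in Lgr5 Epcam+ than in K14 Epcam+ became 0 with chr1 to chr14, summed runs or DESeq2, and the 0 lower became 2 with total-count scaling. The cause was not tested. Total-count scaling moved the median of all peaks from 0.02 to -0.19 against IFE, from -0.04 to 0.12 in Lgr5 Epcam- and from 0.02 to -0.14 against K14 Epcam+. Leaving out either Lgr5 Epcam+ sample leaves no residual degree of freedom and so no test; the members' median log2 ratio then ran from -0.95 to -0.53 against IFE, from -0.08 to 0.31 for Lgr5 Epcam- and from -0.20 to 0.21 against K14 Epcam+. The share of members at a gene end (1.73%) was 1.20% with 500 bp and 3.09% with 2000 bp, and that far from genes (31.3%) was 33.7% among members kept in the single-end runs, which also left 12 for each follicle stem cell list (19 and 29). Of 189 named peaks, 81 fell under a margin of 1.5 with a pseudocount of 2, 77 in the single-end runs, 43 with TMM and 39 with summed runs, and none changed sign. Of 25 called peaks (at most 6 per direction), 1 lost its call with summed runs, 1 with total-count scaling, 1 with DESeq2 size factors and 3 with the DESeq2 test, which gave no adjusted p for 4, and none changed sign. Members with 50 to 99 counts in HF also had the lowest median margin (1.70), so depth and margin were not separated. No paired analysis was possible because only the Lgr5 Epcam+ group holds more than 1 sample. Motif windows of 100 and 500 bp were not run, since no genome was used.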

Other observations

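On chr8, 8 of the 14 eligible peaks between 103475697 and 103626791 were follicle-only, all beyond 50 kb of any protein-coding gene span, and Cdh5 was the nearest to those described here. The first of them (chr8:103475697-103476697) had 211 summed counts in HF, 17 in IFE and 20 in K14 Epcam+, while Lgr5 Epcam+ samples 1 and 2 and Lgr5 Epcam- had 0, 1 and 0. It was the other member, beside the stretch near Fst, with at most 2 summed counts in a tumour sample, and the 3 samples near 0 are those of Lgr5CreER mice. A further member of the chain (chr8:103577141-103578273) was instead at 11.2 CPM in K14 Epcam+, 11.9 in each Lgr5 Epcam+ sample, 4.29 in IFE and 2.19 in Lgr5 Epcam- (single-end), so that peaks of the chain differed in which of the other samples came next.

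The same rule applied to the other samples in turn gave 2334 peaks for IFE, 181 for K14 Epcam+, 36 and 539 for Lgr5 Epcam+ samples 1 and 2, and 4465 for Lgr5 Epcam-. In a pair of the same group, a peak high in both samples passes for neither, so these counts are not comparable between groups of 1 and 2 samples.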
